A study of Mus musculus with 6 samples.

Results

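The genes described here are factors that build ribosomes in the nucleolus, together with the subunits of the RNA exosome. They were taken by symbol: every annotated gene whose name begins with Rrp, Exosc, Nop or Utp followed by a digit, Imp3 and Imp4, and the nucleolar genes Dkc1, Gar1, Nhp2, Ncl, Npm1, Nolc1, Bop1, Pes1 and Wdr12. Fbl was also on the list and was not analysed here. That gave 48 of the 19057 genes measured, each read from the brightest of its probes. The probe was chosen by its mean intensity across the 6 arrays, which does not use the group labels and is not a result here; the set of symbols was proposed with results of this comparison in view, so no test is made of the set as a whole.

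Immortalized mouse proximal tubular cells of strain background C56BL/6 carried a stable hairpin, delivered by lentivirus, against GFP (Control, 3 arrays) or against Glis2 (Glis2KD, 3 arrays). All were collected at day 7 after infection, and total RNA was hybridised with Cy3 label to an Illumina bead array. Such hairpins are cut by the cell into small RNAs that deplete the matching transcript, and Glis2 is a zinc finger transcription factor whose mutation causes cysts and fibrosis of the kidney. The design asks how expression in tubular cells changes when Glis2 is depleted; depletion itself, other actions of that hairpin and differences between the 2 infected cell pools cannot be told apart. Nothing in the labels shows that the 3 samples within a group were separate cultures, and p-values then describe the spread between these samples only, which may be technical. Each array averages over a population of cells, so fewer cells with a transcript and less of it per cell cannot be told apart.

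Ribosome assembly starts with a long precursor RNA made by RNA polymerase I. Small nucleolar ribonucleoproteins modify it, methylating riboses under box C/D guides and isomerising uridines under H/ACA guides. The small subunit processome and the large subunit assembly factors then fold and cleave it. The RNA exosome, a ring of RNase PH-like subunits with a cap and attached nucleases, trims and degrades the cut-off pieces and many other nuclear RNAs. Synthesis of this machinery is known to rise with cell growth, and the transcription factor Myc is a known activator of many of its genes.

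Intensities are linear and include background. Genes count here as above background where their average of 6 arrays was over 138, the most frequent intensity of 113.5 plus 3 times the SD of the values below it. The 6 arrays shared 1 distribution and correlated at r = 0.995 within groups and at 0.980 to 0.982 across groups (45281 probes, which are not replicates). Glis2 (probe ILMN_1226316) measured 278, 234 and 230 in Control and 169, 161 and 176 in Glis2KD. All Glis2KD arrays lay below all Control arrays, with a log2 difference of -0.55 ± 0.092 (SE; limma's adjusted p = 6.32e-05). Of 16 proximal tubule markers measured, 3 were above background, Aqp1, Cdh16 and Pax8, while the endocytic receptors Lrp2 and Cubn were not. The summed intensity of the 16 ran from 11827 to 13382 in Control and from 2701 to 2999 in Glis2KD, and most of that fall is the water channel Aqp1, from 9760 ± 706 to 365 ± 101 (SD, n = 3). Cdh16 also fell, by 1.41 on the log2 scale, and Pax8 was not called (-0.21). Among general epithelial markers 8 of 9 were above background, with sums of 72763 to 74772 in Control and 96786 to 98536 in Glis2KD. That sum is mostly the bright keratin probes of Krt8, Krt18 and Krt7, which rose by 0.57, 0.40 and 0.45, while Cdh1 (-0.38) and Cldn1 (-1.16) fell and Ocln, Tjp1, Epcam and Krt19 were not called. For other cell types, 3 of 11 markers of distal nephron and collecting duct, 2 of 3 of podocytes, 0 of 7 of endothelium, 1 of 10 of fibroblasts and pericytes and 1 of 6 of leukocytes were above background. Their sums in Control and Glis2KD were 2444 to 2603 and 2315 to 2526 for distal nephron, 1207 to 1321 and 1577 to 1642 for podocytes, 814 to 876 and 862 to 897 for endothelium, 1287 to 1324 and 1183 to 1243 for fibroblasts, and 734 to 790 and 771 to 859 for leukocytes. Endothelial sums are background and give no level. The fibroblast marker above background, Dcn, fell from a mean of 275 to 139, while Col1a2, under the limit, was called higher. The leukocyte marker above background, Csf1r, rose from a mean of 187 to 253. The podocyte markers above background, Podxl and Synpo, rose by 0.39 and 0.42, and no distal nephron marker was called. The part of these shifts in the results on ribosome and exosome genes was not tested.

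Ribosome biogenesis and exosome genes were mostly higher in Glis2KD or not distinguishable, and rarely lower. Limma called 21 of the 48 higher (43.8%) and 3 lower (6.25%) at an adjusted p under 0.05 over all 19057 genes. Among all genes 11.2% were called higher, 11.4% lower and 22.5% in either direction. The rises were moderate, from a log2 difference of 0.28 for Rrp36 to 0.90 for Imp4, a 1.87-fold difference. Of the 48 genes 38 were above background, and these 38 hold all 21 of the higher calls and 2 of the lower ones; among the 9577 genes above background the shares called were 21.4% higher, 22.0% lower and 43.4% in either direction. All 3 Glis2KD arrays lay above all 3 Control arrays in 25 of the 48 genes and below them in 6, where all genes gave 16.1% in each direction and genes above background 25.9% and 26.5%. The median log2 difference was 0.19 over the 48 genes and 0.004 over all genes. Counted by array, the median over the 48 genes of the log2 value minus each gene's Control mean was -0.05, 0.07 and -0.01 in Control and 0.19, 0.20 and 0.25 in Glis2KD, so all 3 Glis2KD arrays lay above all 3 Control arrays by this measure. With the most frequent intensity subtracted before log2, 13 of the 21 kept their call, and Bop1, Exosc2, Exosc4, Gar1, Nop2, Rrp9, Utp15 and Utp23 lost it (limma's adjusted p from 0.0513 to 0.233). Their log2 differences were no smaller there, for example 0.45 against 0.42 for Bop1 and 0.37 against 0.34 for Exosc2. Subtracting a constant widens any ratio of intensities above it, so this was fixed in advance and says nothing about whether the differences hold.

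**Figure D1:**
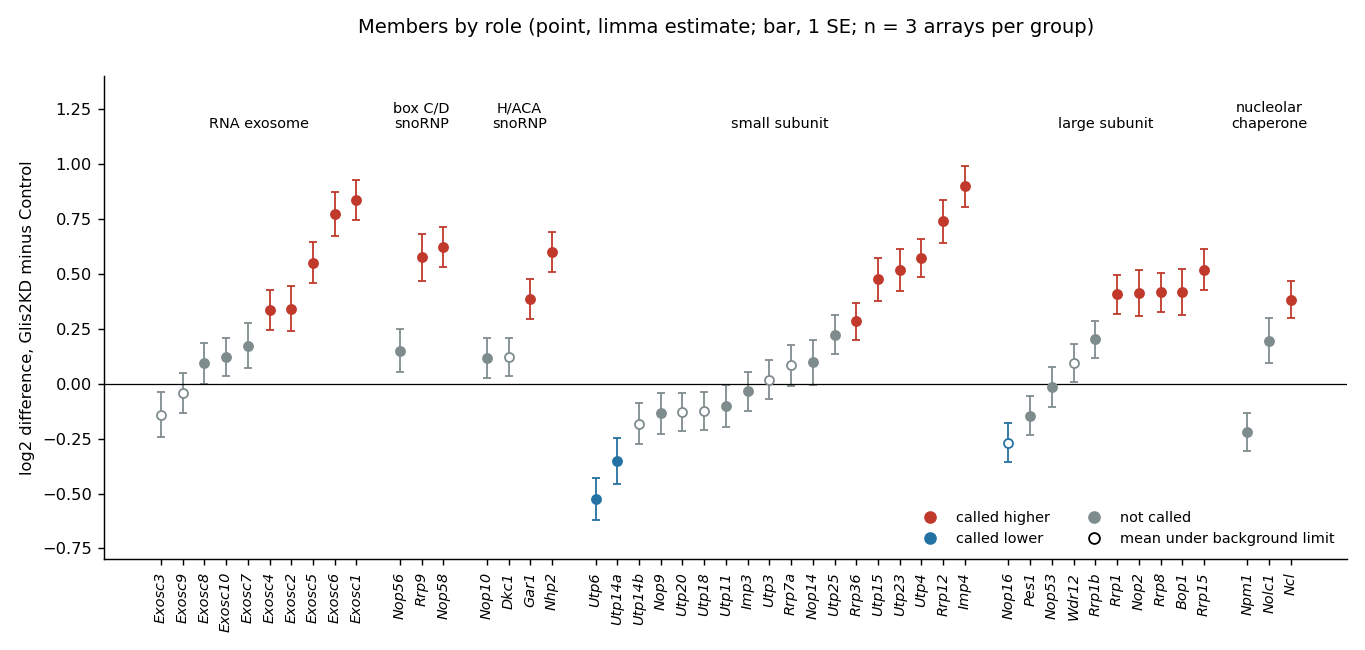
Each point is 1 of the 48 genes, placed by its role, with the log2 difference of Glis2KD minus Control on the vertical axis and a bar of 1 SE (n = 3 arrays per group); open points had a mean under the background limit. The 21 genes called higher (red) occur in every role, from 0.28 to 0.90, and the 3 called lower (blue) are Utp6, Utp14a and Nop16.

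The promoters of the genes that rose most are shown because genes that move together can be compared for shared letters. Of the 48 genes, 39 had at least 1 entry in a RefSeq promoter table of build GRCm38.p6, which spans 250 bases before to 50 after each annotated start. The printed windows are the 150 bases before the start, 5′ to 3′ on the gene's strand, for the 8 genes with an entry that rose by 0.55 or more on the log2 scale. Capitals mark 4 motifs on either strand, and adjoining matches can overlap: the E-box CACGTG bound by Myc and related factors, the ETS core CCGGAAG, the GC box GGGCGG and the CCAAT box.
Imp4, chr1:34439679-34439828, plus strand: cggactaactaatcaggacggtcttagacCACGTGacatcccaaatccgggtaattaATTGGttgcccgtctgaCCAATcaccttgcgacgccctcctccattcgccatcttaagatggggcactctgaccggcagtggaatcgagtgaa
Exosc1, chr19:41933315-41933464, minus strand: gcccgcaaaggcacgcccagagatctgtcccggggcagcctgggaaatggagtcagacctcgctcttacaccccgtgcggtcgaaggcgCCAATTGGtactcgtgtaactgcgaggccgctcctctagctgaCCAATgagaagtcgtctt
Exosc6, chr8:111056189-111056338, plus strand: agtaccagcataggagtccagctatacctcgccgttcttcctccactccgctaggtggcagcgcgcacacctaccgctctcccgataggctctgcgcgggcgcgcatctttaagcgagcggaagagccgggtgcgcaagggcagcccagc
Nop58, chr1:59684856-59685005, plus strand: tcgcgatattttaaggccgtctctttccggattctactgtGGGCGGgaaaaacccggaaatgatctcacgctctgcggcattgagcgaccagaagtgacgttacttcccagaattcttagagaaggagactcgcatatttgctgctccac
Nhp2, chr11:51619623-51619772, plus strand: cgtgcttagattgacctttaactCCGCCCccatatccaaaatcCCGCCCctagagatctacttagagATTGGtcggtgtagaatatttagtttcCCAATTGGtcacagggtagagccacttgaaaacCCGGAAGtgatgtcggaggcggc
Rrp9, chr9:106477159-106477308, plus strand: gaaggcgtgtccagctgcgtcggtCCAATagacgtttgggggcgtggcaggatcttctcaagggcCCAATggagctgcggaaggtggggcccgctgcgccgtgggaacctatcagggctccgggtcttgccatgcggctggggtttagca
Utp4, chr8:106893490-106893639, plus strand: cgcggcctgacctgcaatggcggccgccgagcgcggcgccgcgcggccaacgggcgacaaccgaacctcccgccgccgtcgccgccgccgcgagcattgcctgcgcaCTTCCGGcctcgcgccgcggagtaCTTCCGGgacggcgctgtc
Exosc5, chr7:25659003-25659152, plus strand: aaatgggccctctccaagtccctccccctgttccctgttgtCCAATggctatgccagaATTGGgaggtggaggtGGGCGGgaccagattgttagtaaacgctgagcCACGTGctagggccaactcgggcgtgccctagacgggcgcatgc
Imp4 and Exosc5 hold a CACGTG, starting at -121 and -44 from the start site. The ETS core starts at -23 in Nhp2 and at -43 and -19 in Utp4. Exosc6 holds none of the 4 motifs in this window.

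Over the full windows on both strands, CACGTG occurred in 10 of the 39 genes (25.6%), against 12.1% of 7822 genes above background with a promoter entry and 8.09% of all 27025 genes of the table. Counted by promoter, since a gene can have several, it was in 7.15% of all 32851 promoters. It was present in 4 of the 17 genes called higher that had an entry (Exosc5, Imp4, Nop2 and Utp4) and in 6 of the other 22. CCGGAAG occurred in 11 of 39 genes (28.2%), against 21.1% of genes above background and 9.93% of all genes, GGGCGG in 69.2% against 70.5% and 38.2%, and CCAAT in 43.6% against 43.0% and 41.1%. Counted by promoter, these 3 were in 8.86%, 35.7% and 37.4% of the table. TCTCGCG, part of a palindrome frequent in CpG island promoters, occurred in 10.3% against 6.33% and 2.92% (2.56% of promoters). The YY1 core, ATGGCGG, occurred in 10.3% against 9.77% and 4.69% (4.05% of promoters). A match is a description of the letters and not of binding, and no p-value is attached to these shares.

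In the RNA exosome, transcripts of 2 cap and 3 ring subunits rose. Of its 10 subunits 5 were called higher and 0 lower, where the shares are 11.2% and 11.4% of all genes and 21.4% and 22.0% of genes above background. Exosc1, a cap subunit (probe ILMN_1224534), measured 2843, 3497 and 3089 in Control and 5633, 5488 and 5671 in Glis2KD. The Glis2KD arrays were close together and all far above Control, with a log2 difference of 0.84 ± 0.091 (SE, n = 3 arrays per group; limma's adjusted p = 1.39e-07). Exosc6, a ring subunit (probe ILMN_2685849), measured 529, 679 and 567 in Control and 901, 1047 and 1082 in Glis2KD. The groups did not overlap, and the log2 difference was 0.77 ± 0.10 (SE; limma's adjusted p = 2.04e-06). Exosc5, another ring subunit, measured 681, 710 and 632 in Control and 887, 1111 and 975 in Glis2KD, a log2 difference of 0.55 ± 0.095 (SE; limma's adjusted p = 7.77e-05).

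Smaller rises were called for the ring subunit Exosc4, from 1693 ± 107 to 2136 ± 165, and the cap subunit Exosc2, from 1398 ± 141 to 1777 ± 247 (SD, n = 3). Their log2 differences were 0.33 and 0.34, with limma's adjusted p = 0.00745 and 0.0159. The call of Exosc2 was lost without Control replicate 1 or without Glis2KD replicate 3 (limma's adjusted p = 0.122 and 0.147), and with normexp correction it had 0.0584.

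The other ring and cap subunits and the nuclease Exosc10 were not called. The catalytic subunit Dis3 lies outside the symbol rule and is described below with the exosome cofactors. Exosc7 measured 2563, 3046 and 3206 in Control and 2885, 3720 and 3349 in Glis2KD. Exosc8 measured 2379, 2796 and 2351 in Control and 2455, 2755 and 2805 in Glis2KD. Both overlapped between the groups, with log2 differences of 0.17 ± 0.10 and 0.09 ± 0.094 (SE). Exosc10, the nuclear nuclease attached to the ring, measured 723, 727 and 760 in Control and 866, 776 and 768 in Glis2KD. Its groups did not overlap, by a narrow margin, and the log2 difference of 0.12 ± 0.087 (SE) was not called (limma's adjusted p = 0.417). Exosc3, a cap subunit, measured 134, 136 and 109 in Control and 130, 108 and 105 in Glis2KD. Exosc9, the remaining ring subunit, measured 108, 109 and 127 in Control and 113, 116 and 105 in Glis2KD. These 2 lay under the background limit on every array, so their probes give no level in either group.

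**Figure D2:**
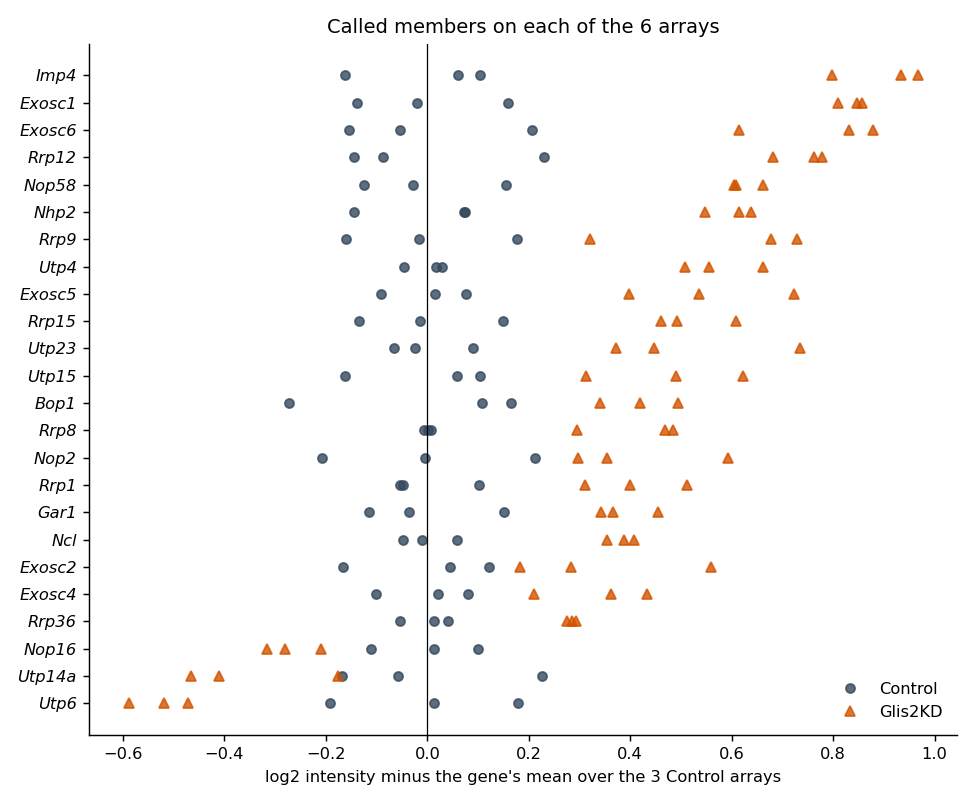
The horizontal axis is the log2 intensity on each array minus the gene's mean over the 3 Control arrays, for the 24 genes called in either direction; circles are Control and triangles Glis2KD arrays. The Control and Glis2KD arrays are separate in all 24 genes, most widely in Imp4 and Exosc1. The 24 were picked by their calls on these same arrays, so the separation follows largely from that choice.

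Among the snoRNA-bound proteins, the box C/D protein Nop58 and the H/ACA protein Nhp2 rose most. Nop58, a core protein of box C/D particles, measured 3394, 4121 and 3631 in Control and 5860, 5629 and 5643 in Glis2KD. The log2 difference was 0.62 ± 0.091 (SE; limma's adjusted p = 9.01e-06). Its partner Nop56 went from 2395 ± 307 to 2650 ± 202 (SD, n = 3) with overlapping arrays and was not called (0.15 ± 0.099, SE). Relative to the 50 neighbouring genes it was called higher, by 0.37 (limma's adjusted p = 0.00837). Rrp9, which binds the U3 RNA of the small subunit processome, measured 534, 590 and 675 in Control and 955, 989 and 745 in Glis2KD. Glis2KD replicate 3 was the closest to Control, and the log2 difference was 0.58 ± 0.11 (SE; limma's adjusted p = 0.000214).

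Of the H/ACA proteins, which form the pseudouridylation particles and also bind telomerase RNA, Nhp2 measured 5579, 6486 and 6492 in Control and 9447, 9016 and 9608 in Glis2KD. Its log2 difference was 0.60 ± 0.090 (SE; limma's adjusted p = 1.31e-05). Gar1 rose from 5623 ± 540 to 7339 ± 308 (SD, n = 3), a log2 difference of 0.39 with limma's adjusted p = 0.00219. Nop10, the smallest protein of the particle, measured 6022, 7183 and 6822 in Control and 7757, 7048 and 6903 in Glis2KD, overlapped and was not called. The pseudouridine synthase Dkc1 measured 113, 117 and 108 in Control and 119, 127 and 122 in Glis2KD, under the background limit on every array. Within each particle, therefore, some proteins were called and others were not; whether the differences between partners exceed their error was not tested.

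Factors of the small subunit gave both the largest rise and the clearest fall. Of 18 genes 6 rose, 2 fell and 10 were not called, 5 of those 10 being above background. That is 33.3% higher and 11.1% lower, against 11.2% and 11.4% of all genes and 21.4% and 22.0% of genes above background. The share called lower is close to that of all genes. Imp4, which binds U3 RNA together with Imp3 and Mphosph10 (probe ILMN_1227519), measured 1484, 1784 and 1731 in Control and 3247, 3171 and 2888 in Glis2KD. Every Glis2KD array was far above every Control array, with a log2 difference of 0.90 ± 0.093 (SE; limma's adjusted p = 5.91e-08). Imp3 measured 5643, 5344 and 6065 in Control and 5757, 5743 and 5156 in Glis2KD. Its groups overlapped, and the log2 difference was -0.03 ± 0.089 (SE). Mphosph10 did not exceed background on any Control array and was not called (0.15 ± 0.088, SE).

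Rrp12, a repeat protein that takes part in export of the small subunit precursor, measured 2206, 2860 and 2296 in Control and 3908, 4181 and 4133 in Glis2KD. The log2 difference was 0.74 ± 0.098 (SE; limma's adjusted p = 2.39e-06). Rrp12 and Exosc1 lie on chromosome 19 with 1 protein-coding gene between them in the RefSeq gene order, Pgam1. That gene was also called higher, by 0.51 ± 0.11 (SE; limma's adjusted p = 0.000932). The 3 genes share a place on the chromosome, and the 50 genes above background around Exosc1 and Rrp12 had medians of 0.13 and 0.16.

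Utp4 and Utp15 belong to the UTP-A subcomplex, which binds the nascent precursor first. Utp4 measured 1010, 1064 and 1056 in Control and 1483, 1533 and 1650 in Glis2KD, a log2 difference of 0.57 ± 0.086 (SE; limma's adjusted p = 1.38e-05). Utp15 measured 297, 306 and 255 in Control and 354, 400 and 439 in Glis2KD, a log2 difference of 0.48 ± 0.098 (SE; limma's adjusted p = 0.000618). Among UTP-A genes, Utp4, Utp15, Wdr43 (0.64), Heatr1 (0.60) and Wdr75 (0.52) rose and Nol11 was not called (-0.19). Utp23, which helps to release a snoRNA from the precursor, measured 316, 307 and 342 in Control and 535, 417 and 439 in Glis2KD, a log2 difference of 0.52 ± 0.097 (SE; limma's adjusted p = 0.000229). Rrp36, needed for early cleavage, rose by 0.28, from 920 ± 31.3 to 1119 ± 7.01 (SD, n = 3; limma's adjusted p = 0.0148), but not with normexp correction or without Control replicate 1 (0.0637 and 0.0664).

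Utp6, a protein of the UTP-B subcomplex (probe ILMN_2750789), was the only gene of the 48 called lower with all 6 arrays above background. It measured 1133, 1466 and 1306 in Control and 933, 861 and 904 in Glis2KD. All Glis2KD arrays were below all Control arrays, with a log2 difference of -0.53 ± 0.096 (SE; limma's adjusted p = 0.00016). Of the other UTP-B genes, Pwp2 (0.87), Tbl3 (0.42) and Wdr3 (0.29) rose, and Utp18 and Wdr36 were under background on every array. The UTP-A and UTP-B groupings follow the known complexes and were drawn up after the values had been seen. Utp14a, which activates a helicase of the processome, went from 165 ± 23.8 to 129 ± 14.1 (SD, n = 3), with 2 Glis2KD arrays under the background limit (-0.35 ± 0.10, SE; limma's adjusted p = 0.0144). It lies on the X chromosome among genes whose median was -0.75, and less the median of those neighbours its value is 0.41. With a Glis2KD mean under the background limit its own log2 difference is compressed, so neither its size nor a direction relative to the neighbours can be read from this. Its call was also lost without Control replicate 2, Glis2KD replicate 1 or Glis2KD replicate 3 (0.0637 to 0.136).

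Among the small subunit genes above background that were not called, log2 differences ran from -0.14 for Nop9 to 0.22 for Utp25, with Imp3, Utp11 and Nop14 between them. Utp3, Utp14b, Utp18, Utp20 and Rrp7a were under the background limit on every array, so a change in them would not be visible here.

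Of the 10 large subunit factors 5 were called higher, 1 lower and 4 not, against 11.2% and 11.4% of all genes called higher and lower and 21.4% and 22.0% of those above background. Rrp15, a factor of early large subunit precursors, measured 792, 965 and 862 in Control and 1223, 1197 and 1326 in Glis2KD, a log2 difference of 0.52 ± 0.092 (SE; limma's adjusted p = 0.000117). Rrp8, a methyltransferase acting on the large rRNA, measured 199, 200 and 198 in Control and 244, 278 and 275 in Glis2KD, a log2 difference of 0.42 ± 0.087 (SE; limma's adjusted p = 0.000738). Its Control arrays were nearly identical and all Glis2KD arrays were above them. Rrp1 measured 268, 297 and 266 in Control and 343, 394 and 365 in Glis2KD, a log2 difference of 0.41 ± 0.090 (SE; limma's adjusted p = 0.00118). It lies on chromosome 10 among genes with a median of 0.32, and relative to them its difference was 0.08, which was not called (limma's adjusted p = 0.589).

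The rRNA cytosine methyltransferase Nop2 rose from 779 ± 114 to 1035 ± 115 and Bop1 from 1548 ± 243 to 2051 ± 110 (SD, n = 3), with log2 differences of 0.41 and 0.42 and limma's adjusted p = 0.00435 and 0.00352. Nop2 lost its call narrowly without Control replicate 1 (0.0507). Bop1 forms a complex with Pes1 and Wdr12 that is needed to process the large subunit precursor. Pes1 had 576 ± 50.4 in Control and 520 ± 28.1 in Glis2KD with overlapping arrays (-0.14 ± 0.091, SE), and Wdr12 was under background on every array. Nop53, which brings the exosome's helicase to the precursor, differed by -0.01 ± 0.090 (SE). The brightest probe of Rrp1b differed by 0.20 ± 0.086 (limma's adjusted p = 0.106). A second Rrp1b probe, nearly as bright, gave 0.35 and was called over all probes with 1 gene symbol (limma's adjusted p = 0.0025). The remaining probes of Rrp1b gave 0.21 and 0.15 and were not called. Nop16 was called lower with all 6 arrays under the background limit, from 125 ± 9.12 to 103 ± 3.89, so no fold is given, and the call was lost without Control replicate 2, Control replicate 3, Glis2KD replicate 2 or Glis2KD replicate 3 (limma's adjusted p 0.0681 to 0.14).

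Of the abundant nucleolar proteins, nucleolin rose and nucleophosmin did not. Ncl, which binds the precursor RNA, measured 1179, 1124 and 1094 in Control and 1501, 1448 and 1482 in Glis2KD, a log2 difference of 0.38 ± 0.085 (SE; limma's adjusted p = 0.00124). Npm1, a histone and ribosome chaperone, had 28200 ± 1032 in Control and 24224 ± 1606 in Glis2KD (SD, n = 3). All of its Glis2KD arrays lay below all Control arrays, yet the difference of -0.22 ± 0.088 (SE) was not called (limma's adjusted p = 0.0782). With eBayes trend and robust settings it was called, with limma's adjusted p = 0.0322, and with an offset of 50 it had 0.033. Nolc1, a chaperone of snoRNA particles, was near the background limit and was not called (0.20 ± 0.10, SE).

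Further probes of the same genes gave a second reading on the same arrays. Of the 48 genes 20 had more than 1 probe, with 26 further probes, of which 17 were above background. Of those 17, 16 had the sign of the brightest probe. The 8 genes called higher that had a further probe above background had 9 such probes, all positive, and 7 of them were called by limma over all 34885 probes with 1 gene symbol. These genes were picked by their calls on the same arrays, and no share for further probes of other called genes is given beside these counts. Exosc6 gave 0.77 on both of its probes. Imp4 gave 0.63 on the second, which measured 558, 647 and 580 in Control and 1114, 849 and 818 in Glis2KD. The second probe of Rrp36 gave 0.57, more than its brightest probe, and that of Nhp2 gave 0.21 and was not called (limma's adjusted p = 0.20). Second probes of Nop58, Bop1 and Utp6 were under the background limit, so the results of these 3 genes rest on 1 probe each. Among the genes called higher, Exosc1, Exosc4, Exosc5, Rrp1, Rrp8, Rrp9, Rrp12, Rrp15, Utp4, Utp15 and Utp23 had only 1 probe.

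**Figure D3:**
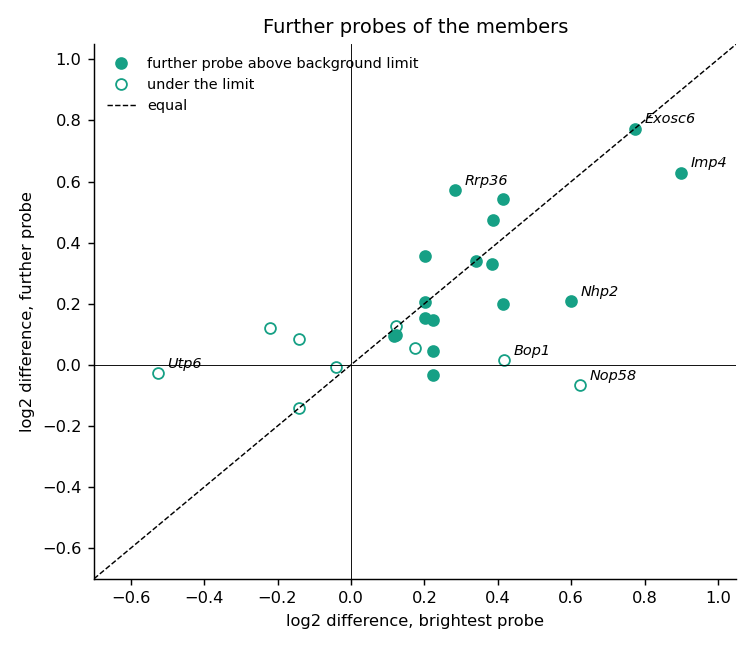
The log2 difference of Glis2KD minus Control on each further probe (vertical) is set against that of the gene's brightest probe (horizontal) for the 20 genes with more than 1 probe; filled points are above the background limit and the dashed line marks equal values. Of the 17 filled points 16 have the sign of the brightest probe, and the open points of Nop58, Bop1 and Utp6 lie near 0.

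The position of the genes on the chromosomes was compared because medians of neighbouring genes differed between places, such as -0.75 around Utp14a and 0.32 around Rrp1. Whether blocks of genes moved together was not tested. The 48 genes lie on 17 chromosomes and the 21 that rose on 13, with at most 4 on 1 chromosome. For those 21 the median log2 difference of the 50 nearest genes above background ran from -0.09 to 0.32. Relative to these neighbours 20 of the 21 were still called higher, the exception being Rrp1. In all 25 of the 48 genes were called higher by this measure, the other 5 being Nop56, Utp25, Rrp1b, Utp14a and Dkc1, of which Dkc1 and the Glis2KD mean of Utp14a were under the background limit. The share of all genes called by this measure is not given here, so the step from 21 to 25 cannot be read as particular to these genes. Bop1 and Exosc4 are both on chromosome 15 with 8 protein-coding genes between them, and their neighbours had medians of 0.02 and -0.01.

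**Figure D4:**
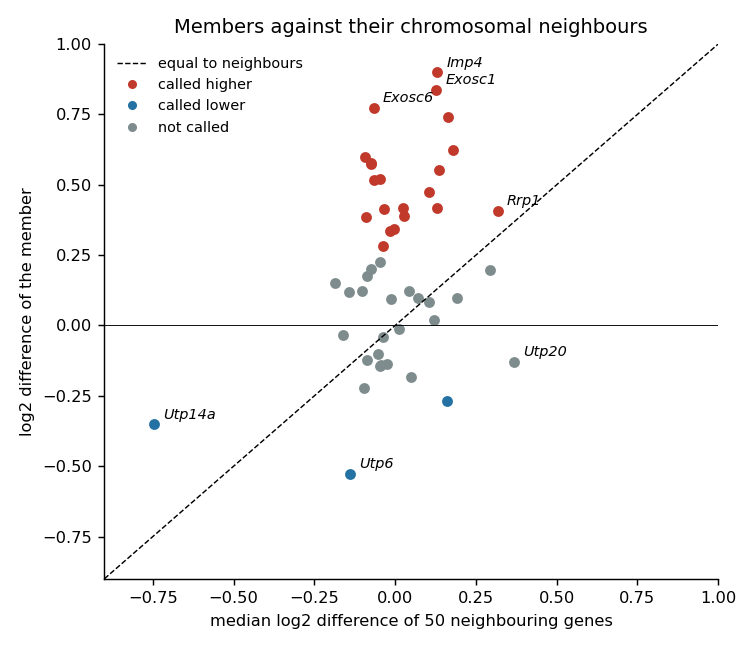
Each point is 1 of the 48 genes, with the median log2 difference of its 50 nearest genes above background on the horizontal axis and its own log2 difference on the vertical axis; the dashed line marks equality. Red points (called higher) lie well above the line except Rrp1, and Utp14a lies at -0.75 on the horizontal axis, above the line.

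Other genes of the pathway, outside the symbol rule, were counted from lists of assembly factors, exosome cofactors and RNA polymerase I. Of 142 such genes measured 64 were higher (45.1%) and 3 lower (2.11%), against 11.2% and 11.4% of all genes and 21.4% and 22.0% of genes above background, with a median log2 difference of 0.20. Among large subunit factors 32 of 53 genes rose and 1 fell, small subunit factors rose in 20 of 47 and fell in 1, and RNA polymerase I genes rose in 7 of 20 and fell in 0. Among exosome cofactors 5 of 23 genes rose (21.7%, close to the share of genes above background) and 1 fell, with a median of 0.01. The medians of the other lists were 0.32, 0.16 and 0.18.

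Among large subunit factors Ccdc86 rose by 1.12 and Eif6, which keeps the large subunit from joining too early, by 1.10, from 7057 ± 596 to 15115 ± 1279 (SD, n = 3). Rpf2 and Sdad1 rose by 0.80 and 0.83, and Nol9 fell by 0.25. Among small subunit factors Rcl1, which acts in cleavage of the precursor, rose by 0.95, Pwp2 by 0.87, Ltv1, which leaves the small subunit late in maturation, by 0.87 and Noc4l by 0.75, while the helicase Ddx52 fell by 0.41. Cd3eap, a subunit of RNA polymerase I, rose from 377 ± 40.8 to 944 ± 16.5 (SD, n = 3), a log2 difference of 1.33. The subunit Polr1b rose by 0.72, and Polr1d and Polr2e, which RNA polymerase I shares with other polymerases, by 0.57 and 0.51. Of the exosome cofactors Wdr74, which also acts on the large subunit, rose by 1.07 and Mphosph6 by 0.58. The catalytic subunit Dis3 was called higher by 0.40, with arrays that overlapped between the groups (limma's adjusted p = 0.0215). Zfc3h1, which links the exosome to polyadenylated nuclear RNA, fell by 0.54. The exosome helicase Mtrex differed by -0.06 ± 0.093 (SE) and was not called.

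**Figure D5:**
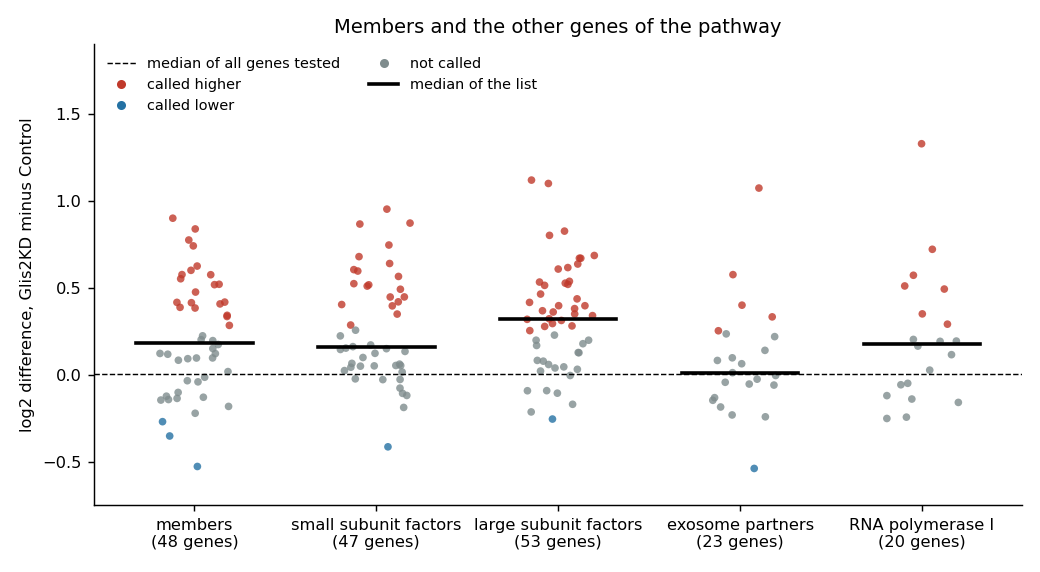
Points are single genes with their log2 difference of Glis2KD minus Control, in the 48 genes and in 4 lists of other pathway genes; black bars are list medians and the dashed line is the median of all genes tested. Genes called higher outnumber those called lower in each column, and the median of the exosome partners, at 0.01, lies nearest to that of all genes.

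In the Myc network, Myc rose from a mean of 216 to 313, a log2 difference of 0.53 ± 0.087 (SE, n = 3 arrays per group), and Mycl by 1.60. Mxd1, an antagonist that competes for the partner Max, fell, with a log2 difference of -1.85, from 872 ± 89.4 to 241 ± 14.1. The other 9 of the 12 genes measured in that list were not called. The shares called in it, 16.7% higher and 8.33% lower, were both below the 21.4% and 22.0% of genes above background. A link between the Myc network and the ribosome and exosome genes was not tested. In the list tied to p53 and nucleolar stress 2 of 11 genes rose and 3 fell, among them Cdkn1a (0.29) and Pml (-0.33), and Mdm2 was not called (0.09). These shares, 18.2% and 27.3%, are near those of genes above background, 21.4% and 22.0%.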

How the data were processed

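Total RNA of 6 samples, 3 Control and 3 Glis2KD, was hybridised to Illumina mouse bead arrays. For each probe the deposited values are linear intensities, 1 for every array; how the authors extracted or normalized them is not stated in the labels. Judged by the values, all arrays shared 1 distribution (log2 medians within 0.00029) without background subtraction (lowest intensity 85.4). The platform annotation gave 34885 of the 45281 probes 1 gene symbol, 18 probes several and 10378 probes none; 34807 matched a RefSeq gene table of GRCm38.p6 by Entrez identifier. Intensities were taken to log2 without further normalization and fitted on 19057 genes with limma 3.58.1 in R 4.3.3 (lmFit, eBayes without trend), with Benjamini-Hochberg adjustment over all genes and a threshold of 0.05. The fit was tested on simulated data with independent noise on each array, which does not represent noise shared within a group.

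The gene group, the lists and the alternatives were chosen with earlier results of these data known. Values on each array were set to be given for Glis2, the 16 called genes with the smallest p and up to 8 uncalled partners by symbol; of each list up to 4 called genes with the smallest p were named, and other names were chosen after their values were seen. The number of arrays limits the precision. Some list genes, Fbl among them, were not analysed here.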

Additional observations from a re-analysis of the deposited data

How the results depend on the processing

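Of the 21 genes called higher, 9 kept that call under every one of the 18 alternatives (Exosc1, Exosc5, Exosc6, Imp4, Ncl, Rrp12, Rrp15, Rrp8 and Utp4). Over these 21 genes and all alternatives 355 of 374 calls were kept. Exosc1, Exosc5, Rrp12, Rrp15, Rrp8 and Utp4 have only 1 probe. Averaging probes or taking the second probe left their values as they were, so these 2 alternatives could not test them. Quantile normalization and median centring change little on arrays that already share 1 distribution. With the most frequent intensity subtracted, 13 genes were higher and 1 lower, and 39 of the 142 other pathway genes were higher; the cause was not tested. The shares of all genes called under each alternative are not given here, so a changed count cannot be read as particular to these genes. Restricting the fit to genes above background gave 5 lower pathway genes, and using second probes gave 1. Leaving out 1 array gave 18 to 22 higher and 1 to 3 lower genes, with 1 lower without Control replicate 2 or without Glis2KD replicate 3, and 54 to 62 higher and 2 to 4 lower pathway genes. Among the 24 called genes the sign turned in 2 cases: Nop58 gave -0.067 on its second probe, which is under background, and Utp14a, itself near background, gave 0.41 relative to neighbouring genes. Genes that were not called changed sign too, such as Nolc1 (0.20 to -0.10) and Imp3 (-0.03 to 0.16) relative to neighbouring genes. Same-numbered arrays correlated at -0.09, -0.04 and -0.04 in their deviations from group means, so the values showed no pairing by replicate number. Whether the samples were paired in culture or processing cannot be read from this. With the replicate number as a block 21 genes were higher and 3 lower, and 63 and 2 of the other pathway genes. Leaving out chromosomes 10, 15, 18 and X, an alternative added after seeing the data, gave 17 higher and 2 lower of 40 genes. Glis2 was called lower under each alternative, from -0.36 on its second probe to -1.27 with background subtracted.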
